A study of Mus musculus with 9 samples.

Results

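The enzymes that make prostaglandins, thromboxane and leukotrienes from arachidonic acid were examined in mouse macrophages loaded with lipid emulsion particles. The 10 genes were taken by name: *Pla2g4a*, *Ptgs1*, *Ptgs2*, *Ptges*, *Ptges2*, *Ptges3*, *Tbxas1*, *Alox5*, *Alox5ap* and *Ltc4s*. All 10 were among the 54432 genes measured and among the 12637 kept for testing, which needed over 10 counts in 3 or more libraries. Gene expression was measured by RNAseq in RAW264.7 cells, a macrophage-like line from a virus-induced mouse tumour, used at passage 13 to 15 and grown in DMEM with fetal bovine serum. One group was left untreated (control), one received VLDL-sized emulsion particles (VLDLsep) at 1 mM and one received the larger chylomicron-sized particles (CHYLsep) at 1 mM, each for 6 hours and with 3 libraries. Both kinds of particle were made from sunflower oil with sodium caseinate, and the labels call the control untreated and name no carrier. The samples of a condition from 1 experiment were pooled, so the p-values measure the spread between pools of 1 cell line, and both treated groups were compared with the same 3 control libraries.

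Cytosolic phospholipase A2 frees arachidonic acid from membrane phospholipids. The cyclooxygenases turn it into prostaglandin H2, from which terminal synthases make prostaglandin E2, thromboxane A2 and other prostanoids. 5-Lipoxygenase, helped by its activating protein, turns the same fatty acid into leukotriene A4, from which leukotriene C4 synthase makes the cysteinyl leukotrienes. In macrophages cyclooxygenase-1 is regarded as the constitutive form and cyclooxygenase-2 as the form that stimuli induce.

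The bases just before the start site are shown for 3 genes that moved in opposite directions: *Ptgs2*, which was higher with either particle, and *Ptgs1* and *Alox5*, which were lower. They were chosen after the values were seen. Each run holds the 250 bases before the RefSeq start on GRCm38.p6, 5′ to 3′ on the strand of the gene, and capitals mark matches to the motifs searched. *Ptgs2* lies on the plus strand (chr1:150099781-150100030), *Ptgs1* on the plus strand (chr2:36230176-36230425) and *Alox5* on the minus strand (chr6:116461179-116461428).
Ptgs2: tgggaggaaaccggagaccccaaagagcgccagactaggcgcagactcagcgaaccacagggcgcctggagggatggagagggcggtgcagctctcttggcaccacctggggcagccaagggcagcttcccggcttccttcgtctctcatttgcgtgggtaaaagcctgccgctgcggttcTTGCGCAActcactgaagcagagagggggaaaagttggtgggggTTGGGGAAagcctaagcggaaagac
Ptgs1: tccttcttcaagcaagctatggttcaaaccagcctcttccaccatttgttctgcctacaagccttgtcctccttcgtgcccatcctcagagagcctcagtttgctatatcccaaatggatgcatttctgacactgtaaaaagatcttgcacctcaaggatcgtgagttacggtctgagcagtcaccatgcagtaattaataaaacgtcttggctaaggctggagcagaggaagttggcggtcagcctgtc
Alox5: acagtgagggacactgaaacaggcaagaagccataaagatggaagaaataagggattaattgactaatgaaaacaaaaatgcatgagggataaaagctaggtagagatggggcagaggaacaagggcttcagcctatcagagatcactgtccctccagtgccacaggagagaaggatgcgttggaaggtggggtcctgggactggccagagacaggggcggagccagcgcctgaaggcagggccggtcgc
Motifs were searched on both strands: the TATA box TATAAA, the cyclic AMP response letters CGTCA, the C/EBP motif TTNNGNAA, the AP-1 motif TGANTCA, the E-box CACGTG, the antioxidant response core TGACNNNGC and the NF-kB motif. The window of *Ptgs2* held 2 matches to the C/EBP letters, whose first bases lay 69 and 25 bases before the start. It held no match to the others. Bases after the RefSeq start were not searched, so a missing match does not show that a promoter lacks the motif. The C/EBP letters were found in 36.8% of 32536 promoter windows of the same length. The windows of *Ptgs1* and *Alox5* held none of the motifs. GC content was 61.6% for *Ptgs2*, 48% for *Ptgs1* and 52.8% for *Alox5*, with a median of 52.4% over all windows. Over the 10 windows found for 9 of the genes, the C/EBP letters also occurred in those of *Ptges*, *Ptges2* and the upstream start of *Pla2g4a*. Of the other motifs, the TATA letters (12.3% of all windows) occurred in that of *Tbxas1* and the downstream start of *Pla2g4a*, the AP-1 letters (6.73%) in *Tbxas1*, the E-box (6.04%) in *Ptges2* and the NF-kB letters (7.28%) in *Ptges3*. No window of these genes held the cyclic AMP response letters (17.9%) or the antioxidant response core (10.2%).

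The cells carried the labelled identity: all 10 macrophage markers were above 1 cpm (counts scaled to a fixed library size after TMM normalization) in every library, and 5 of 8 mast cell markers were at 0 throughout, the others not exceeding 0.0456 cpm. T cell, B cell and epithelial markers reached at most 0.09 cpm, whereas single markers were higher for neutrophils (2.02 cpm), fibroblasts (2.44 cpm) and platelets (1 cpm). The summed macrophage markers were 6926 to 7012 cpm in control, 6182 to 6376 cpm with VLDL-sized and 6360 to 6562 cpm with CHYL-sized particles. Not every marker fell. With VLDL-sized particles 6 of the 10 were lower and 1, *Cd68*, higher at an adjusted p under 0.05 (limma-voom). Among all genes tested 17.9% were lower and 17.8% higher. With CHYL-sized particles 3 were lower and 0 higher, against 13% and 12.7%. The lower sum moved with the treatment and its part in the results below was not tested. Fewer cells expressing a gene and less RNA of it per cell cannot be told apart in bulk samples. Depth was 22393893 to 22856792 counts per library, and the 3 libraries numbered replicate 3 stood apart from the other libraries of their own group.

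Of the 10 genes, 6 passed an adjusted p of 0.05 with VLDL-sized particles (limma-voom, Benjamini-Hochberg adjustment over all genes tested), and so did 6 with CHYL-sized particles. *Ptgs2*, *Ptges3*, *Alox5ap* and *Pla2g4a* were higher and *Ptgs1* and *Alox5* lower in both comparisons. Among all genes tested, 35.6% passed with VLDL-sized particles (17.8% higher, 17.9% lower) and 25.7% with CHYL-sized particles (12.7% higher, 13% lower). The 10 genes were chosen with earlier results of these data known, so a share above that of all genes is not independent support. For 7 of the 10 genes all VLDL-sized libraries lay on one side of all control libraries, which held for 47.4% of the genes tested, and the same count of 7 was found for CHYL-sized particles, against 41.7%. The median log2 fold change of the 10 genes was 0.10 with VLDL-sized and 0.24 with CHYL-sized particles, and that of all genes was -0.00028 and 0.0013. The count for CHYL-sized particles fell to 4 when TMM normalization was left out, without control replicate 1 and without CHYL-sized replicate 3.

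**Figure D1:**
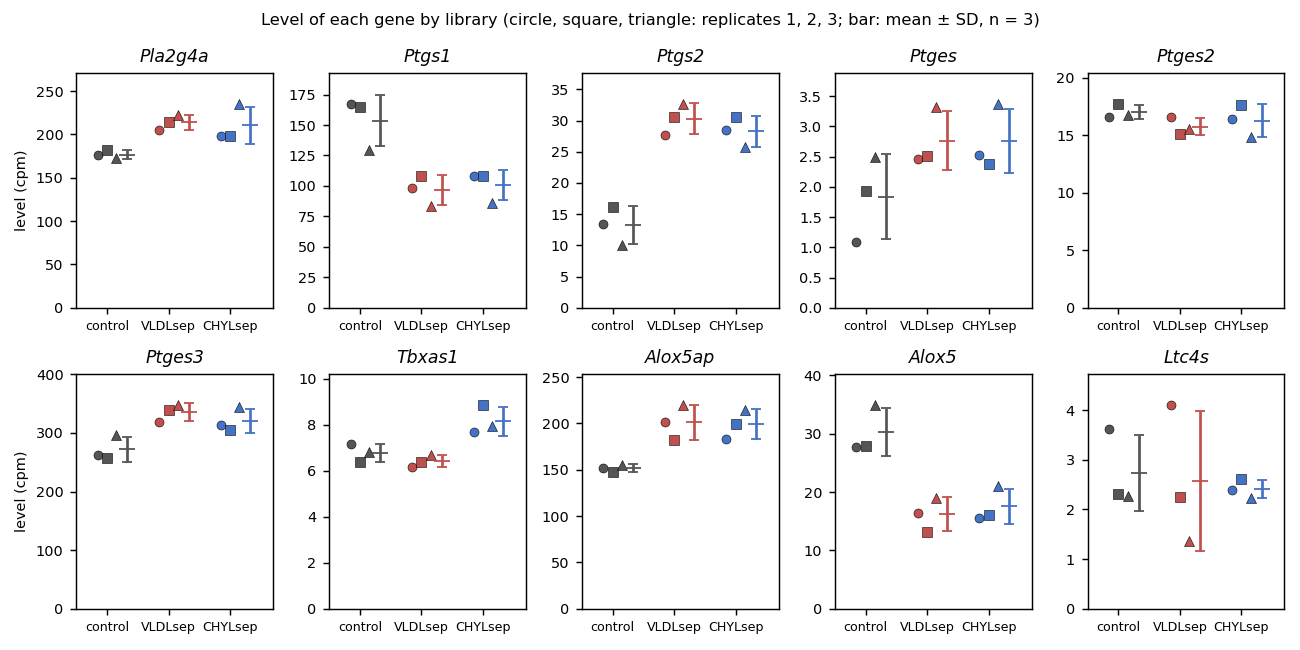
Level of each of the 10 genes in cpm (vertical axis from 0, a separate scale for each gene) in the 3 control, 3 VLDLsep and 3 CHYLsep libraries; symbols mark replicate numbers and bars show mean ± SD. *Ptgs1* and *Alox5* lie lower in all treated libraries than in any control library, and *Ptgs2*, *Pla2g4a*, *Ptges3* and *Alox5ap* lie higher.

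*Pla2g4a* (ENSMUSG00000056220, chr1:149829618-149961290, minus strand) encodes cytosolic phospholipase A2, which starts the pathway. Its level was 176, 182 and 173 cpm in the control libraries, 205, 214 and 223 cpm with VLDL-sized and 198, 198 and 235 cpm with CHYL-sized particles. All treated libraries were above all control libraries. The log2 fold change was 0.27 (SE 0.07, adjusted p = 0.0103, limma-voom) with VLDL-sized particles and 0.25 (SE 0.07, adjusted p = 0.0238) with CHYL-sized particles. The second call was lost without control replicate 1 (adjusted p = 0.071), control replicate 3 (0.058) or CHYL-sized replicate 3 (0.062), and when TMM normalization was left out (0.081).

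*Ptgs1* (ENSMUSG00000047250, chr2:36230426-36252272, plus strand) and *Ptgs2* (ENSMUSG00000032487, chr1:150100031-150108227, plus strand) encode cyclooxygenase-1 and cyclooxygenase-2. *Ptgs1* was 167, 164 and 129 cpm in control, 98.3, 108 and 83.4 cpm with VLDL-sized and 108, 108 and 86.4 cpm with CHYL-sized particles. The lowest value of each group was that of replicate 3, and the treated libraries still lay below all control libraries. The log2 fold change was -0.67 (SE 0.13, adjusted p = 0.00201, limma-voom) with VLDL-sized and -0.61 (SE 0.13, adjusted p = 0.0053) with CHYL-sized particles. *Ptgs2* was 13.4, 16.2 and 10.1 cpm in control, 27.8, 30.5 and 32.7 cpm with VLDL-sized and 28.4, 30.6 and 25.7 cpm with CHYL-sized particles. Its treated libraries were all above its control libraries, with a log2 fold change of 1.22 (SE 0.14, adjusted p = 9.8e-05, limma-voom) for VLDL-sized and 1.12 (SE 0.14, adjusted p = 3e-04) for CHYL-sized particles. These correspond to 2.33-fold and 2.17-fold higher levels.

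The cyclooxygenase genes therefore changed in opposite directions, and their ratio was followed in each library, per kilobase of the median coding transcript (2867 bases for *Ptgs1*, 2405 for *Ptgs2*). The ratio was chosen after the levels were seen. *Ptgs2* over *Ptgs1* was 0.0952, 0.118 and 0.0928 in control, 0.336, 0.337 and 0.467 with VLDL-sized and 0.313, 0.338 and 0.355 with CHYL-sized particles. No treated library overlapped control, and the mean ratio rose from 0.102 ± 0.0137 to 0.38 ± 0.0754 and 0.335 ± 0.0211 (SD, n = 3). *Ptgs1* remained the more abundant transcript per kilobase in all 9 libraries. An exact permutation test gave p = 0.1 for either particle against control (two-sided), the smallest p that 3 against 3 libraries allow. As both genes already separated the groups in opposite directions, no other p was possible, and the test adds nothing to the levels.

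**Figure D2:**
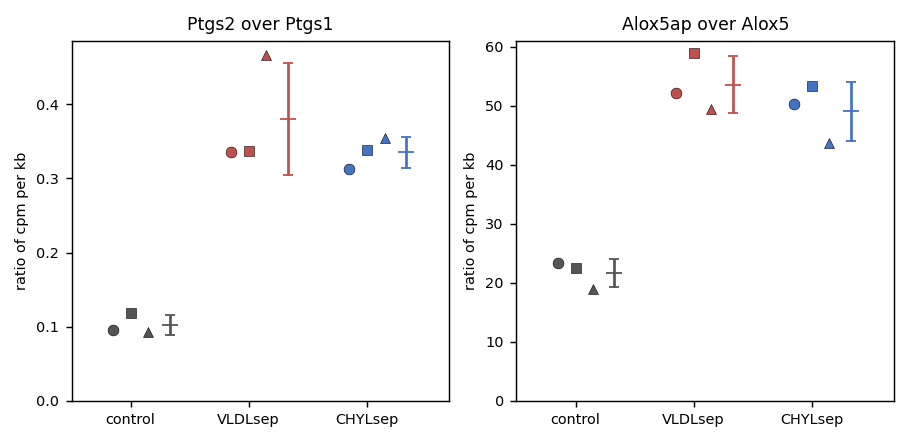
Ratio of levels per kilobase (vertical axes from 0) of *Ptgs2* over *Ptgs1* and of *Alox5ap* over *Alox5* in each library, with mean ± SD over 3 libraries of a group. The treated libraries lie at 0.313 to 0.467 against 0.0928 to 0.118 in control for the first ratio, and at 43.6 to 59 against 19 to 23.4 for the second.

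*Ptgs2* and *Pla2g4a* lie near each other on chromosome 1 and are transcribed away from each other, with 139 kb between their starts. *Ptgs2os*, a noncoding transcript on the opposite strand, starts 68 bases before *Ptgs2* and had 0 to 2 counts in any library. *Ptgs2os2*, a noncoding gene whose start lies 64.9 kb on the other side, had 85 to 141 counts. Neither overlaps *Ptgs2*.

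Prostaglandin E2 is made by the products of *Ptges*, *Ptges2* and *Ptges3*, the microsomal, the membrane-associated and the cytosolic synthase. *Ptges3* (ENSMUSG00000071072, chr10:128058954-128077272), whose product is also the HSP90 co-chaperone p23, was 262, 258 and 297 cpm in control, 318, 340 and 348 cpm with VLDL-sized and 313, 304 and 344 cpm with CHYL-sized particles. All treated libraries were above the control libraries. Its log2 fold change was 0.30 (SE 0.07, adjusted p = 0.00594, limma-voom) with VLDL-sized and 0.24 (SE 0.07, adjusted p = 0.0276) with CHYL-sized particles. The second call was lost with library size alone (adjusted p = 0.074) and without control replicate 1 (0.1), control replicate 2 (0.1), CHYL-sized replicate 1 (0.055) or CHYL-sized replicate 3 (0.096). Its reads could be split with the pseudogene *Ptges3-ps*, which had 0 to 126 counts per library.

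*Ptges* (ENSMUSG00000050737, chr2:30889471-30929863) was low, at 1.09, 1.94 and 2.49 cpm in control, 2.46, 2.52 and 3.32 cpm with VLDL-sized and 2.52, 2.38 and 3.37 cpm with CHYL-sized particles. The highest control library overlapped the lower treated libraries. The log2 fold change was 0.65 (SE 0.28, adjusted p = 0.0956, limma-voom) and 0.64 (SE 0.28, adjusted p = 0.121). With the replicate number as a block the change was 0.60 with VLDL-sized (adjusted p = 0.032) and with CHYL-sized particles (adjusted p = 0.039). Without control replicate 3 the VLDL-sized change was 0.90 (adjusted p = 0.036). Without that library the CHYL-sized change was also 0.90 (adjusted p = 0.048). Without control replicate 1, the lowest library, the changes were 0.32 (adjusted p = 0.36) and 0.31 (adjusted p = 0.41), so that the size of the difference depended on single control libraries. All 3 replicate 3 libraries left out gave 0.77 (adjusted p = 0.035) with VLDL-sized particles. With CHYL-sized particles this gave 0.75, which passed at an adjusted p that rounds to 0.05. *Ptges2* (ENSMUSG00000026820, chr2:32395896-32405772) was 16.6, 17.7 and 16.8 cpm in control, 16.6, 15.1 and 15.6 cpm with VLDL-sized and 16.4, 17.6 and 14.8 cpm with CHYL-sized particles. Its log2 fold change of -0.11 (SE 0.08, adjusted p = 0.318) and -0.07 (SE 0.08, adjusted p = 0.595) did not pass, although the VLDL-sized libraries lay below the control libraries.

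*Tbxas1* (ENSMUSG00000029925, chr6:38875404-39084585) encodes thromboxane A synthase. It was 7.15, 6.36 and 6.82 cpm in control, 6.16, 6.38 and 6.69 cpm with VLDL-sized and 7.66, 8.87 and 7.93 cpm with CHYL-sized particles. The CHYL-sized libraries were above all others, but the log2 fold change against control of 0.27 (SE 0.10, adjusted p = 0.0771, limma-voom) did not pass, nor did that of -0.08 (SE 0.11, adjusted p = 0.603) for VLDL-sized particles.

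*Alox5* (ENSMUSG00000025701, chr6:116410077-116461178, minus strand) encodes 5-lipoxygenase and *Alox5ap* (ENSMUSG00000060063, chr5:149264767-149288153, plus strand) the membrane protein that presents arachidonic acid to it. *Alox5* was 27.8, 27.9 and 34.9 cpm in control, 16.5, 13.2 and 19 cpm with VLDL-sized and 15.6, 16 and 21 cpm with CHYL-sized particles. The groups did not overlap, and the log2 fold change was -0.90 (SE 0.15, adjusted p = 9.3e-04, limma-voom) and -0.79 (SE 0.15, adjusted p = 0.00287). *Alox5ap* was 152, 147 and 156 cpm in control, 201, 183 and 220 cpm with VLDL-sized and 183, 200 and 215 cpm with CHYL-sized particles. It was higher in every treated library than in any control library, by 0.41 (SE 0.08, adjusted p = 0.00186, limma-voom) and 0.39 (SE 0.08, adjusted p = 0.00341) on the log2 scale. Per kilobase of the median coding transcript, *Alox5ap* over *Alox5* rose from 21.6 ± 2.33 in control to 53.6 ± 4.86 and 49.1 ± 4.97 (SD, n = 3), with no overlap. The lengths used were 452 bases for *Alox5ap* and 1929 for *Alox5*, where all exons cover 1420 and 4106. The size of the ratio depends on these lengths, and its fold change between groups does not. This ratio was also chosen after the levels were seen. The exact permutation p was again 0.1, which the separate levels of the 2 genes had fixed beforehand.

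*Ltc4s* (ENSMUSG00000020377, chr11:50236461-50238616), for leukotriene C4 synthase, was low and scattered: 3.62, 2.32 and 2.27 cpm in control, 4.11, 2.25 and 1.36 cpm with VLDL-sized and 2.39, 2.61 and 2.23 cpm with CHYL-sized particles. The groups overlapped, and the log2 fold changes of -0.20 (SE 0.33, adjusted p = 0.687, limma-voom) and -0.15 (SE 0.33, adjusted p = 0.787) did not pass. Without control replicate 1 they were 0.02 and 0.07. The VLDL-sized value was also above 0 without VLDL-sized replicate 3 (0.18) and without all replicate 3 libraries (0.07).

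**Figure D3:**
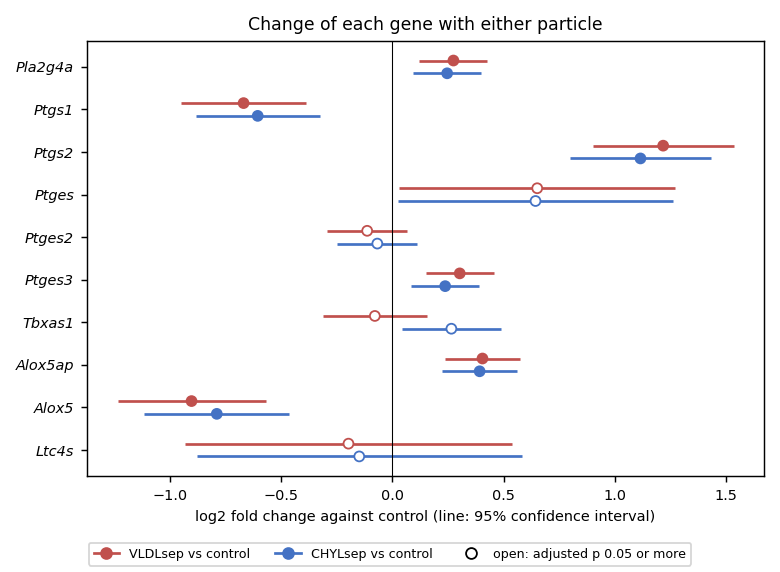
Log2 fold change against control (horizontal axis) of the 10 genes for VLDLsep and CHYLsep, with 95% confidence intervals; filled points have an adjusted p under 0.05. *Ptgs2* lies farthest to the right (1.22 and 1.12) and *Alox5* farthest to the left (-0.90 and -0.79).

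To place the genes against each other, cpm was divided by the median length of the coding transcripts. In control *Alox5ap* came first with 336 ± 9 cpm per kb (SD, n = 3), followed by *Ptges3* (153 ± 12.1), *Pla2g4a* (62.4 ± 1.69), *Ptgs1* (53.6 ± 7.39) and *Alox5* (15.7 ± 2.13). *Ptgs2* (5.5 ± 1.28), *Ltc4s* (4.83 ± 1.35) and *Tbxas1* (4.75 ± 0.276) followed, and neighbours among these overlapped in their libraries. *Ptges2* (3.42 ± 0.123) and *Ptges* (0.504 ± 0.193) were last. With either particle *Ptgs2* ranked above *Alox5*, at 12.6 ± 1.03 against 8.41 ± 1.5 cpm per kb with VLDL-sized particles, without overlap, and at 11.7 ± 1.02 against 9.09 ± 1.57 cpm per kb with CHYL-sized particles, with overlap. With the length of all exons in place of the coding transcripts, the order in control was *Ptges3*, *Alox5ap*, *Ptgs1*, *Pla2g4a*, *Alox5*, *Ptges2*, *Ptgs2*, *Ltc4s*, *Tbxas1* and *Ptges*. *Ptges3* (123 ± 9.67 cpm per kb) then lay above *Alox5ap* (107 ± 2.86), and *Ptgs1* (39.6 ± 5.45) above *Pla2g4a* (27.7 ± 0.752), each without overlap. *Ptges2* (3.37 ± 0.121 cpm per kb) overlapped *Ptgs2* (2.89 ± 0.672), and *Tbxas1* was at 0.745 ± 0.0434 cpm per kb. The order both above and below *Alox5* therefore depends on the length used.

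VLDL-sized and CHYL-sized particles were compared directly. None of the 10 genes passed, as 0% of all genes did with limma-voom, and 813 of the 12637 genes had an unadjusted p under 0.05, of which 1 was among the 10. edgeR's quasi-likelihood test called 0 genes (812 at an unadjusted p under 0.05) and DESeq2 24 (650). The gene was *Tbxas1*, at 6.41 ± 0.265 cpm with VLDL-sized and 8.16 ± 0.63 cpm with CHYL-sized particles (SD, n = 3), a log2 difference of -0.34 (95% interval -0.57 to -0.12, adjusted p = 0.572). It was the only gene of the 10 whose libraries did not overlap between the particles, as was the case for 11.3% of all genes. For *Ptgs2* the log2 difference between the particles was 0.10 (95% interval -0.17 to 0.38), for *Ptgs1* -0.06 (-0.35 to 0.22), for *Alox5* -0.11 (-0.48 to 0.25) and for *Alox5ap* 0.01 (-0.15 to 0.18). For *Pla2g4a* it was 0.03 (-0.12 to 0.18), for *Ptges3* 0.07 (-0.09 to 0.22) and for *Ptges2* -0.05 (-0.23 to 0.14). The intervals were widest for the low genes *Ptges* (-0.56 to 0.58) and *Ltc4s* (-0.81 to 0.71).

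The other genes of the pathway were counted from 5 lists holding 86 genes, of which 43 were tested. These lists too were chosen with earlier results of these data known. With VLDL-sized particles 14 were higher and 5 lower, and with CHYL-sized particles 13 were higher and 5 lower, at a median log2 fold change of 0.04 and -0.0015. These were 19 and 18 of the 43 genes, where 35.6% and 25.7% of all genes tested passed. In 2 of the 43, *Mgst2* and *Ptger2*, no control library exceeded 10 counts. They entered the test only through the treated libraries, where they were higher. Both are included in these counts and in those of their lists below, so their calls are not support for a rise. The list of arachidonic acid release and return to phospholipids held 17 tested genes. Of these, 4 rose and 2 fell with VLDL-sized particles, and 3 rose and 2 fell with CHYL-sized particles. These shares were near the 35.6% and 25.7% of all genes. Being on this list does not show that a gene's product handles arachidonic acid. *Pla2g7*, which hydrolyses platelet-activating factor, rose from 4.34 ± 0.754 to 14.2 ± 0.702 and 13.8 ± 1.1 cpm (log2 fold change 1.72 and 1.67). *Daglb*, a diacylglycerol lipase, fell from 46.9 ± 4.89 to 27.5 ± 2.53 and 29.5 ± 1.32 cpm (-0.77 and -0.66). *Plaa*, named as an activator of phospholipase A2, rose by 0.48 and 0.35. *Pla2g6*, a calcium-independent phospholipase A2, rose by 0.49 with VLDL-sized particles and was 0.33 higher with CHYL-sized particles (adjusted p = 0.0526, limma-voom). The latter passed in 8 of 20 alternatives, among them edgeR (0.049) and DESeq2 (0.044).

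Among 6 tested genes on the list of other prostanoid synthases, *Akr1b8* and *Akr1b3* rose, where 17.8% and 12.7% of all genes did. Being on the list does not show that a gene's product makes a prostanoid. *Akr1b8*, an aldo-keto reductase with close paralogs between which reads could be split, went from 181 ± 16.7 to 755 ± 17.1 and 764 ± 24.1 cpm, a log2 fold change of 2.06 and 2.08. *Akr1b3*, aldose reductase, which can also make prostaglandin F2alpha, rose by 0.45 and 0.39. Of 8 tested genes on the list of further leukotriene and lipoxygenase genes, 4 passed with each particle, where 35.6% and 25.7% of all genes did. Membership of this list likewise does not show that a gene's product makes a leukotriene. The 4 were not the same: *Dpep2* passed only with VLDL-sized and *Alox15* only with CHYL-sized particles, while *Mgst1*, *Mgst2* and *Cotl1* passed with both. Both counts include *Mgst2*, which entered the test only through the treated libraries. *Mgst1*, a microsomal glutathione transferase, rose (1.495 and 1.436). The related *Mgst2* had 10, 7 and 7 counts in control, 19, 12 and 23 with VLDL-sized and 18, 22 and 18 with CHYL-sized particles, at log2 fold changes of 1.19 and 1.32. Its call was lost with VLDL-sized particles without VLDL-sized replicate 3 (adjusted p = 0.052), without control replicate 2 (0.059) and without all replicate 3 libraries (0.1), and with CHYL-sized particles without control replicate 2 (0.051). *Dpep2*, a dipeptidase that converts leukotriene D4, fell with VLDL-sized particles (-0.41, adjusted p = 0.0358), a call lost without control replicate 1 (0.11), control replicate 2 (0.095), VLDL-sized replicate 1 (0.053), VLDL-sized replicate 3 (0.11) or CHYL-sized replicate 1 (0.051) and with no filter on low counts (0.052). With CHYL-sized particles it was at -0.37 (0.0664), which passed in 9 of 20 alternatives, among them DESeq2 (0.041). *Alox15*, a 12/15-lipoxygenase at 0.933 ± 0.191 cpm in control, fell with CHYL-sized particles (-1.01, adjusted p = 0.022), a call lost with DESeq2 (0.076) and without control replicate 2 (0.068), control replicate 3 (0.059), CHYL-sized replicate 1 (0.085) or all replicate 3 libraries (0.071), and was at -0.43 with VLDL-sized particles (0.229).

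Of 7 tested genes for inactivation and export, 4 rose with either particle, where 17.8% and 12.7% of all genes did. *Abcc1*, the exporter of leukotriene C4, rose from 107 ± 8.9 to 383 ± 27.7 and 348 ± 27.4 cpm (1.85 and 1.71). *Abcc4*, which exports prostaglandins, rose by 0.92 and 0.81, and *Ptgr1*, which inactivates prostaglandins and leukotriene B4, by 1.17 and 1.00. *Zadh2*, another prostaglandin reductase, rose by 0.33 and 0.31, the second call being lost without control replicate 2 (adjusted p = 0.056), without CHYL-sized replicate 2 (0.051) and when TMM normalization was left out (0.067). Of 5 tested receptors, 2 were called higher and 1 lower with either particle, where 35.6% and 25.7% of all genes passed. The 2 include *Ptger2*, which entered the test only through the treated libraries. *Ptger2*, a prostaglandin E2 receptor, had 7, 4 and 3 counts in control, 24.4, 40 and 33 with VLDL-sized and 19, 23 and 27 with CHYL-sized particles, at fitted log2 fold changes of 2.82 and 2.33. *Ptgir*, the prostacyclin receptor, rose by 0.66 and 0.62. *Cysltr1*, a cysteinyl leukotriene receptor, fell from 22 ± 1.45 to 10.7 ± 1.22 and 13.2 ± 1.34 cpm (-1.04 and -0.74).

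**Figure D4:**
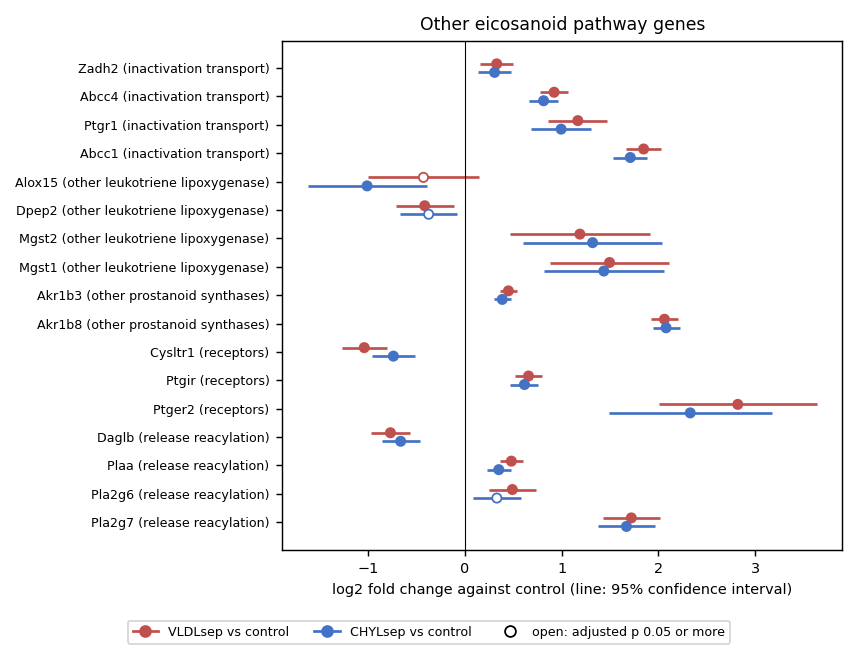
Log2 fold change against control (horizontal axis) of 17 further genes of the pathway, grouped by list, with 95% confidence intervals; filled points have an adjusted p under 0.05. *Ptger2*, with 3 to 7 counts in control, lies farthest to the right (2.82 and 2.33), and the genes to the left of 0 are *Cysltr1*, *Daglb*, *Dpep2* and *Alox15*.

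The genes whose levels followed a member most closely over the 9 libraries were found by the root mean square distance between centred log2 levels. This is a description with no test. The distance includes the step between control and treated libraries, so genes with a similar fold change come close. For *Ptgs2* the nearest were *Kdm7a* (0.127), *Nmrk1* (0.135), *Zfp516* (0.156), *Sertad2* (0.156) and *Gm26686* (0.158). For *Ptgs1* they were *Cnnm3* (0.0558), *Klf13* (0.0606) and *Rasa3* (0.064), and for *Alox5ap* *Tomm5* (0.0327), *Fbxw8* (0.0328) and *Tmem115* (0.039).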

How the data were processed

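RNAseq was measured in 9 libraries, grouped and numbered as their labels state. The values that the authors deposited are estimated counts for each gene, obtained with Salmon 0.14.1 and tximport from GRCm38.p6 transcripts. The methods describe a scaling by transcript length, but 58.3% of the values above 10 were whole to within 1e-06, and no scaling was assumed. Estimated counts were rounded only for edgeR and DESeq2.

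Testing was limited to genes with over 10 counts in 3 or more libraries. One limma 3.58.1 model of all libraries was fitted after TMM normalization (edgeR 4.0.16, R 4.3.3) with voom weights, and p-values were adjusted by Benjamini-Hochberg. Exact permutation tests used scipy 1.17.1. Coordinates and transcript lengths came from GENCODE on GRCm38 and promoter windows from RefSeq. Depth was 22393893 to 22856792 counts per library. The lists and the 10 genes were chosen with earlier results of these data known. Named outside the 10 genes were up to 4 genes per list that passed with either particle, those with the largest mean absolute log2 fold change.

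VLDL-sized and control libraries of the same number deviated together from their group means (correlations of 0.138, 0.132 and 0.293 across genes). Libraries of different numbers gave -0.217 to 0.116, the highest close to the lower same-number values. For CHYL-sized particles against control the same numbers gave 0.124, 0.0684 and 0.338, and different numbers up to 0.155. Between the particles they gave 0.0286, 0.117 and 0.357, and different numbers up to 0.179. In these 2 comparisons only replicate 3 stood above all libraries of different numbers. The labels do not say what a number marks. The main model therefore used no pairs, and the number entered only as a block in an alternative. The alternatives were DESeq2 1.42.0, limma-trend, the quasi-likelihood test of edgeR, scaling by library size without TMM, upper-quartile scaling, a fit without the filter, a filter of over 50 counts, a fit of only the pair of groups compared, the replicate number as a block, and libraries left out. A block without replicate 3 was added after seeing the data.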

Additional observations from a re-analysis of the deposited data

How the results depend on the processing

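The number of the 10 genes that passed was 6 to 7 with VLDL-sized and 4 to 7 with CHYL-sized particles over the 20 alternatives, and *Ptgs1*, *Ptgs2*, *Alox5* and *Alox5ap* kept their direction and their call against control in each of them. A replicate block raised the genes that passed from 3249 to 4949 for CHYL-sized particles, from 4500 to 6058 for VLDL-sized particles and from 0 to 147 between the particles. The lowest same-number correlations were 0.0286 between the particles and 0.0684 for CHYL-sized particles against control. For either particle against control the block changed no call of the 10 genes other than that of *Ptges*. Between the particles DESeq2 called 24 genes and the block without replicate 3, chosen after seeing the data, 145; leaving libraries out gave 0 to 232, the highest without replicate 3. Library size alone shifted the median over all genes to -0.0935 and -0.0788 (log2), and the share of higher genes among those that passed to 31.3% and 29.8%.

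Among the genes named, signs turned only for differences that had not passed in the main model, and some of these ran widely. For *Ltc4s* against control the log2 fold change ran from -0.601 to 0.181 with VLDL-sized and from -0.263 to 0.0695 with CHYL-sized particles when libraries were left out, and was 0.0858 with VLDL-sized particles in the block without replicate 3. Between the particles, leaving out libraries gave -0.171 to 0.0382 for *Ptgs1*, -0.0183 to 0.164 for *Ptgs2*, -0.129 to 0.158 for *Ptges*, -0.111 to 0.0136 for *Ptges2*, -0.235 to 0.0275 for *Alox5*, -0.0538 to 0.0818 for *Alox5ap*, -0.452 to 0.33 for *Ltc4s* and -0.013 to 0.111 for *Pla2g4a*. For the other pathway genes it gave -0.0137 to 0.105 for *Pla2g7*, -0.0345 to 0.00901 for *Akr1b8*, -0.106 to 0.196 for *Mgst1*, -0.367 to 0.136 for *Mgst2*, -0.149 to 0.109 for *Dpep2* and -0.0197 to 0.0854 for *Zadh2*. Library size alone gave -0.0061 for *Ptges* and -0.000453 for *Alox5ap*; edgeR gave 0.0919 and the block 0.0894 for *Ltc4s*; and the block without replicate 3 gave -0.0186 for *Ptgs2*, 0.356 for *Ltc4s* and -0.0452 for *Mgst1*. The cause was not tested. Depth limits *Ltc4s*, *Ptges*, *Mgst2*, *Alox15* and *Ptger2*, each with under 100 counts per library.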
